A study of Homo sapiens with 2 samples.

Results

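The 8 genes described here encode the enzymes that make polyamines and the proteins that hold their amount in check: ODC1, AMD1, SRM, SMS, OAZ1, OAZ2, AZIN1 and SAT1. They were chosen by name and role, with earlier results of these data known. All 8 were found among the 12353 genes of the deposited table. The samples were 2 libraries of BJ cells, a line of human skin fibroblasts, grown in medium with heat-inactivated fetal calf serum and given no treatment. The assay was global run-on sequencing (GRO-seq), in which RNA polymerases already engaged on genes extend their transcripts in isolated nuclei with a brominated nucleotide, and the labelled RNA is captured and sequenced. The values are FPKM, fragments per kilobase of gene scaled to library size, so they describe transcription and not the amount of mRNA or protein. Both libraries belong to 1 group from 1 cell line, so there was no second condition, and no test was run; errors are the SD over the 2 libraries. The labels call them biological replicates.

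Polyamines are small positively charged molecules that bind nucleic acids and are needed for growth. Ornithine decarboxylase (ODC1) makes putrescine from ornithine, and S-adenosylmethionine decarboxylase (AMD1) supplies the aminopropyl groups that spermidine synthase (SRM) and spermine synthase (SMS) add to it in turn. The antizymes OAZ1 and OAZ2 bind ornithine decarboxylase and send it to the proteasome, and their translation needs a ribosomal frameshift that polyamines promote. The antizyme inhibitor AZIN1 resembles the decarboxylase, lacks its activity and takes up antizyme. SAT1 acetylates spermidine and spermine for export or breakdown. Much of this control acts on translation and protein turnover, which nascent RNA does not measure.

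The starts of these genes differ in sequence, and the windows of 250 bases before each start in the RefSeq table (GRCh38.p14) were searched on both strands for 4 motifs. The table held 10 windows for 7 of the 8 genes, since ODC1 and AMD1 have more than 1 start; the coordinates belong to that build, whereas the values were made on hg19. CACGTG, the canonical E-box that MYC and MAX bind, was in 2 of the 10 windows, 1 each of ODC1 and SRM. It was in 6.34% of all 35116 windows and in 8.23% of the 14536 windows of genes with a value. TATAA, the core of the TATA box, was in 3 of the 10 windows, 1 of ODC1 and 2 of AMD1 that nearly coincide. It was in 18.9% of all windows and in 11.6% of those of genes with a value. The windows that hold these motifs are shown in the direction of transcription, with CACGTG or TATAA in capitals. They comprise both starts of ODC1, the start of SRM and 1 of the 2 AMD1 starts that lie a single base apart.
ODC1 upstream start (chr2:10448328-10448577, minus strand): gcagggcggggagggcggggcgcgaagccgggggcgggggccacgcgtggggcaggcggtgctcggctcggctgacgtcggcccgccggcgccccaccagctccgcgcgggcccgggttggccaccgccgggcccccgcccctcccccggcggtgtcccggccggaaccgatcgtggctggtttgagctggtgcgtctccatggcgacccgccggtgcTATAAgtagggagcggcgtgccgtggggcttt
ODC1 downstream start (chr2:10448013-10448262, minus strand): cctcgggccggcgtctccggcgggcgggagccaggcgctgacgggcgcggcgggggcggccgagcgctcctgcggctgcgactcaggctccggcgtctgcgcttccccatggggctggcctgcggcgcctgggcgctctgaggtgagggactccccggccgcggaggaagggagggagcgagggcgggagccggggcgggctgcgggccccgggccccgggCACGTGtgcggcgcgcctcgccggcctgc
SRM (chr1:11060019-11060268, minus strand): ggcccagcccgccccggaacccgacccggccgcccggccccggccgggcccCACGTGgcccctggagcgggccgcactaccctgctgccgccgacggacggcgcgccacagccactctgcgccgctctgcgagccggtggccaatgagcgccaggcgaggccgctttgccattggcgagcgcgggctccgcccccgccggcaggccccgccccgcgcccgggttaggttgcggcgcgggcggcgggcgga
AMD1 (chr6:110874535-110874784, plus strand): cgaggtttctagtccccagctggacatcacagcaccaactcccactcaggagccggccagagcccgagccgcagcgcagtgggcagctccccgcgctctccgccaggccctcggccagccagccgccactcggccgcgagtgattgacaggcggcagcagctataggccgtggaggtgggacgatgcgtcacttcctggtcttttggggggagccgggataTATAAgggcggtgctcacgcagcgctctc
The first base of TATAA lay 32 bases before the upstream ODC1 start and 29 before the AMD1 start shown. The E-box began 29 bases before the downstream ODC1 start and 199 before that of SRM. GGGCGG, the GC box bound by SP1, was in 9 of the 10 windows, all but that of SAT1, against 42.6% of all windows and 62.7% of those of genes with a value. By gene this was 6 of the 7 with a window. G and C made up 66.4% to 82.4% of the bases in the 10 windows, against a median of 64.4% for windows of genes with a value. CCAAT, the site of NF-Y, was in 5 of the 10, 1 each of AMD1, OAZ1, SMS, SAT1 and SRM, against 32.0% of all windows and 33.0% of those of genes with a value. For AMD1 it was in the window of a separate start (chr6:110814367-110814616), and not in the 2 that nearly coincide. None of these motifs overlapped another in the windows shown. A match describes letters, and which start was used in BJ cells was not measured.

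All but 1 of the 8 genes were transcribed above the typical gene. Their median FPKM was 21.1 (library a 21.2, library b 20.8), against a median of 11.7 for all genes. A total of 7 of 8 lay above that median. They ranged from 77.0 for AMD1 to 8.67 for SMS, a span of 8.89-fold, or 4.36-fold without AMD1. Their values had an SD of 0.92 on the log2(FPKM + 0.1) scale, against 1.46 for all genes. These levels rest on the gene lengths the authors divided by, which the sources used here do not give. The plot of levels by library shows the order.

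**Figure D1:**
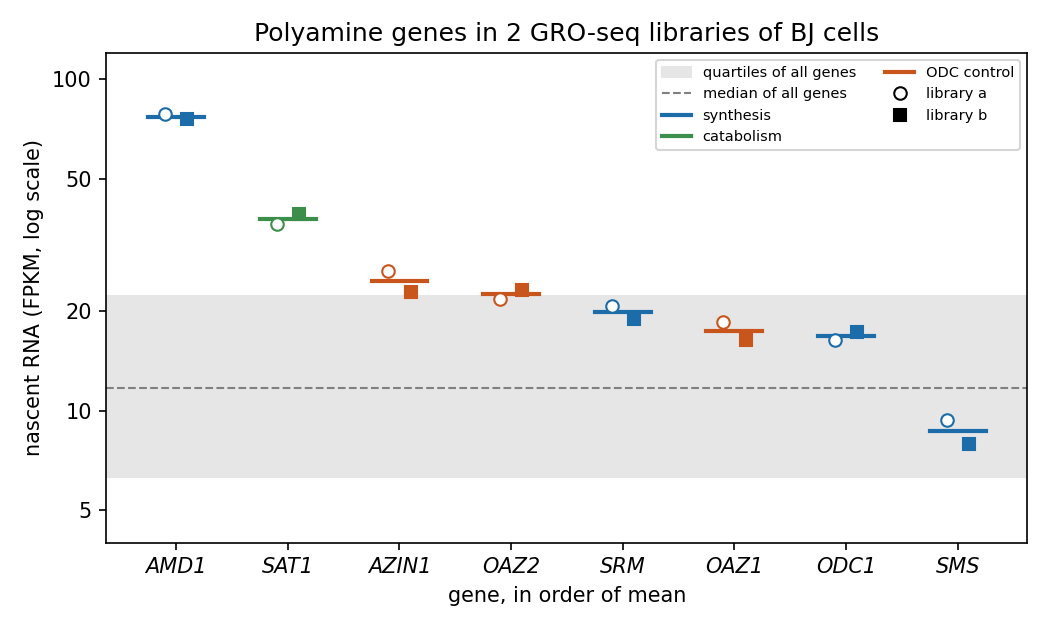
FPKM of each gene in library a (open circles) and library b (squares), on a log axis, with the mean as a bar coloured by role; the grey band spans the quartiles of all genes, 6.30 to 22.2, and the dashed line is their median, 11.7. AMD1, SAT1 and AZIN1 stand above the band in both libraries, OAZ2 in library b alone, and SMS is the only gene under the median.

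Of the enzymes of synthesis, AMD1 stood far above the rest. It had an FPKM of 78.4 in one library (a) and 75.7 in the other (b), with a mean of 77.0 ± 1.92 (SD, n = 2), and 425 of the 12353 genes had a higher mean. AMD1 alone made up 34.4% of the summed FPKM of the 8 genes in a and 34.2% in b. ODC1, often described as the gate to the pathway, was at 16.4 and 17.3 (16.8 ± 0.643), at percentile 65.2 of all genes. AMD1 exceeded ODC1 by 2.19 ± 0.091 on the log2 scale, a fold of 4.55, with ratios of 2.25 and 2.12 in the single libraries.

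The synthases were lower than AMD1 and differed from each other. SRM was at 20.7 and 18.9 (19.8 ± 1.27), and SMS, which makes spermine from spermidine, at 9.38 and 7.95 (8.67 ± 1.01). SRM exceeded SMS by 1.19 ± 0.075 log2 units (2.28-fold), and AMD1 exceeded SRM by 1.96 ± 0.056 (3.88-fold). SMS was the lowest gene in each library, and every other member exceeded it beyond the spread. SRM was higher than ODC1 in both libraries, with log2 ratios of 0.33 in a and 0.13 in b, but the mean of 0.23 ± 0.15 did not exceed 2 SD.

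The antizyme genes were close to ODC1 in level. OAZ1 was at 18.5 and 16.4 (17.4 ± 1.51), and its log2 ratio to ODC1 was 0.17 in a and -0.078 in b, so the sign changed between libraries. OAZ2 was at 21.7 and 23.2 (22.4 ± 1.05), 1.33-fold above ODC1 (log2 ratio 0.41 ± 0.012). OAZ2 was higher than OAZ1 in both libraries, but the log2 ratio of 0.36 ± 0.19 did not exceed 2 SD. The antizyme inhibitor gene AZIN1 was at 26.4 and 22.8 (24.6 ± 2.59), 1.45-fold above ODC1 (0.54 ± 0.21) and 1.41-fold above OAZ1 (0.49 ± 0.028). Its values did not overlap those of OAZ1 or ODC1, but they overlapped those of OAZ2.

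Sums of FPKM put these opposing genes side by side; they were chosen after the values were seen. OAZ1 and OAZ2 together had 40.2 in a and 39.6 in b, 2.37 ± 0.118 times ODC1 alone. ODC1 and AZIN1, which both bind antizyme, summed to 42.8 and 40.1, and the antizyme sum was 0.963 ± 0.0341 times that. These are ratios of nascent RNA density, not of proteins.

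SAT1, the gene of catabolism, was second in both libraries, at 36.5 and 39.1 (37.8 ± 1.85). It stood 2.24-fold above ODC1 (log2 ratio 1.16 ± 0.016) and 2.16-fold above OAZ1 (1.11 ± 0.19). AMD1 exceeded it by 1.03 ± 0.11 log2 units, a fold of 2.04.

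The full order was AMD1, SAT1, AZIN1, OAZ2, SRM, OAZ1, ODC1 and SMS by mean. In library b OAZ2 passed AZIN1 and ODC1 passed OAZ1; the other places were the same in each library. A pair was called separated where its log2 ratio had 1 sign in both libraries and a mean over 2 SD. This held for 23 of the 28 pairs (82.1%), against 86.3% of all 76292128 pairs of genes in the table, so the share was near the background. The pairs not separated were AZIN1 with OAZ2, OAZ2 with SRM, OAZ2 with OAZ1, SRM with ODC1, and OAZ1 with ODC1. An SD from 2 libraries is itself imprecise, so a small SD is no proof of a precise ratio.

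**Figure D2:**
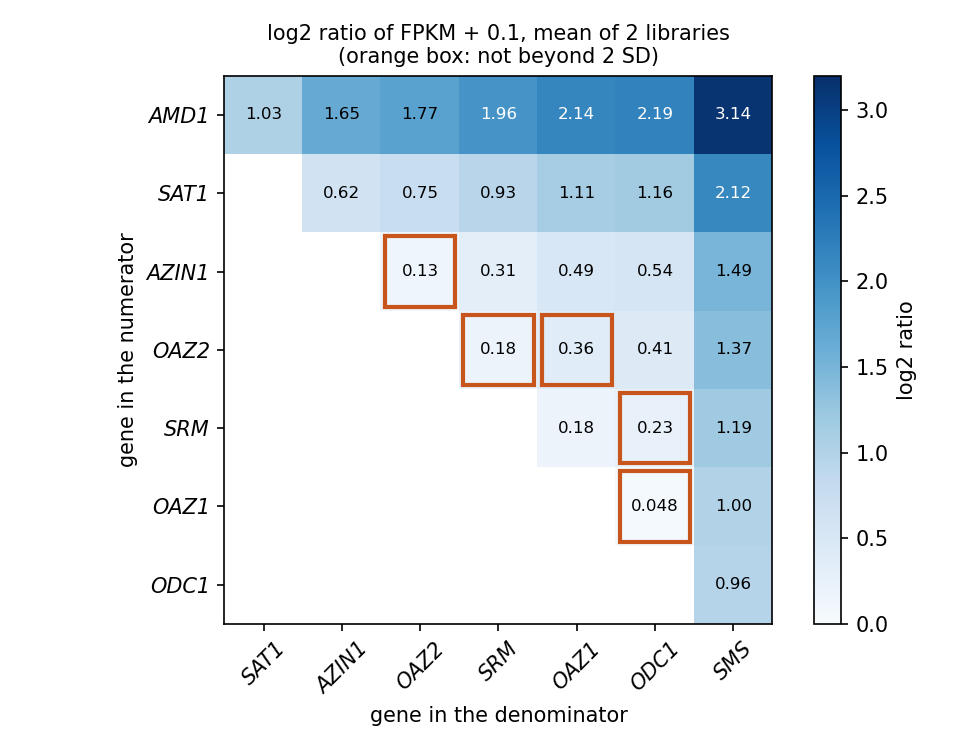
Mean log2 ratio over the 2 libraries for each of the 28 pairs, row gene over column gene, in order of level; orange boxes mark the 5 pairs that were not separated by more than 2 SD. The AMD1 row and the SMS column hold no box, and the boxes lie among AZIN1, OAZ2, SRM, OAZ1 and ODC1.

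The libraries gave nearly the same values for these genes. Centred on the median difference of all genes, 3 of the 8 were higher in library b (SAT1, OAZ2 and ODC1) and 5 in library a. The widest gap was that of SMS, 1.16-fold, followed by AZIN1 at 1.15-fold, and the narrowest was that of AMD1, 1.02-fold. None of the 8 passed 1.2-fold, against 21.3% of all genes, and the median gene differed 1.10-fold. 

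**Figure D3:**
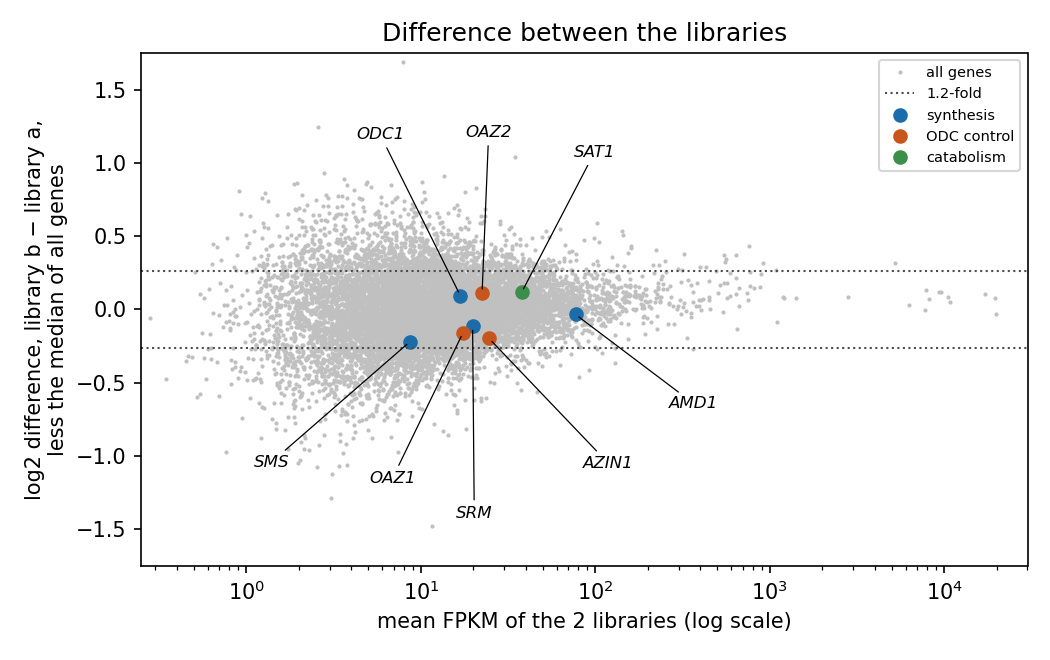
Log2 difference between library b and library a, less the median of all genes, against mean FPKM on a log axis; grey points are all 12353 genes and coloured points the polyamine genes by role. All 8 lie between the dotted lines at 1.2-fold, with SMS closest to the lower one.

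For each gene, the gene whose pair of log2 values lay nearest was found; with 2 libraries of 1 condition, this finds genes of the same level and no more. The nearest were TMEM143 for AMD1, KDM4A for SAT1, GUSB for AZIN1, BRK1 for OAZ2, TMEM243 for SRM, PPP4R3A for OAZ1, EML2 for ODC1 and KATNAL2 for SMS. Distances ran from 0.0042 log2 units (OAZ2) to 0.013 (ODC1).

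Some values may include reads from elsewhere. RefSeq names 4 pseudogenes of AMD1, 3 of SRM and 1 each of ODC1, OAZ1 and SMS, and none had a value in the table. The sources used here do not say how reads matching several places were counted, so the levels of these 5 genes are uncertain to that extent. The spans of ODC1 and AMD1 each hold a small nucleolar RNA gene, SNORA80B and SNORA40C. That of AMD1 overlaps the pseudogenes RNU6-1115P, CNN2P9 and RBISP4, and that of SAT1 overlaps LOC127933115, listed as protein coding. None of these had a value. The AMD1 span also overlaps that of CDK19, a Mediator kinase gene, which was at 4.74 and 5.70. The part of such reads in the levels was not tested.

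The next genes with a value on either side were taken in RefSeq order. Genes without a value were passed over, up to 12 of them, between SMS and PRDX4, so most of these are not direct neighbours. Beside AMD1 lay CDK19 (5.22 ± 0.679) and GTF3C6, a subunit of the RNA polymerase III factor TFIIIC, whose 74.6 ± 0.240 was close to that of AMD1. Beside SAT1 were ACOT9 (6.96 ± 0.205) and KLHL15 (3.73 ± 0.177), beside SMS MBTPS2 (3.21 ± 0.375) and PRDX4 (4.29 ± 1.10), and beside ODC1 HPCAL1 (7.26 ± 2.13) and NOL10 (9.41 ± 0.361). AMH (8.02 ± 0.0283) and PEAK3 (7.09 ± 1.17) flanked OAZ1, ZNF609 (9.86 ± 0.0919) and PIF1 (16.1 ± 3.92) flanked OAZ2, and KLF10 (20.9 ± 0.566) and ATP6V1C1 (15.3 ± 0.976) flanked AZIN1. Beside SRM, EXOSC10 was at 16.3 ± 1.44, and MASP2 was higher than SRM. MASP2 encodes a complement protease made mainly in liver, and the source of its reads was not tested. Its values were 29.2 (a) and 32.2 (b).

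Among other members of these families, 3 of 4 had a value and all 3 were above the median gene. SAT2, a relative of SAT1, was at 22.3 and 26.0 (24.2 ± 2.59), 1.57-fold below SAT1. AZIN2, another antizyme inhibitor, was at 12.5 and 13.0 (12.8 ± 0.332). OAZ3, the antizyme of developing sperm cells, was at 18.9 and 18.8 (18.9 ± 0.0354), level with OAZ1 (log2 ratio 0.11 ± 0.12). In RefSeq its span overlaps those of MRPL9, a mitochondrial ribosomal protein gene at 16.5 and 18.4, and TDRKH at 3.54 and 3.12. SAT2 lies within the span of SHBG (5.16 and 8.55), and AZIN2 overlaps ZNF362 (5.59 and 4.81) and TRIM62 (4.64 and 4.76). Whether strand was used in counting is unknown here, so reads of overlapping genes cannot be told apart. SATL1 had no value.

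The oxidases that act on spermine and on acetylated polyamines were both below the median gene. SMOX was at 5.18 and 3.94 (4.56 ± 0.877) and PAOX at 5.70 and 6.68 (6.19 ± 0.693). SAT1, which makes the substrate of PAOX, stood 6.04-fold above it and 8.20-fold above SMOX.

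Spermidine is also the substrate for hypusine, an amino acid formed only in the translation factor eIF5A, and 4 of 4 genes of this pathway had values. EIF5A was at 58.2 and 53.6 (55.9 ± 3.26) and its relative EIF5A2 at 2.53 and 3.44, a fold of 18.3. DHPS, which transfers the spermidine part, was at 49.3 ± 4.71. DOHH, which then hydroxylates it, was at 5.27 and 6.41, so DHPS was 8.34-fold higher.

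Of the genes for methionine and its salvage, 12 of 16 had values, with a median of 12.9, and 7 were above the median gene. MAT2A, which makes the S-adenosylmethionine that AMD1 uses, led the list at 143 and 149 (146 ± 4.72), 1.89-fold above AMD1. Its regulatory partner MAT2B was at 12.1 and 12.5. AHCYL1 (21.9 ± 1.04) and the cystathionine synthase gene CBS (21.9 ± 1.34) came next, and AHCYL2 was lowest (2.58 ± 0.113). MTAP, which clears the methylthioadenosine left by SRM and SMS, was at 7.18 and 7.01, and AMD1 was 10.7-fold above it.

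Genes that supply arginine and ornithine were near the typical gene: 11 of 12 had values, their median was 10.6, and 4 lay above the median gene. The proline synthesis gene PYCR1 (28.8 ± 1.41) and the ornithine aminotransferase gene OAT (20.6 ± 1.73) were among the highest, and GATM was lowest (3.06 ± 0.410). The arginase genes, whose products form ornithine, were lower than ODC1, with ARG2 at 9.38 and 7.66 and ARG1 at 3.93 and 4.21.

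Of the transport genes, 7 of 15 had values, with a median of 14.2 and 4 above the median gene. The caveolin gene CAV1 (146 ± 4.57) and SLC3A2, the heavy chain of amino acid exchangers (131 ± 1.94), were highest, followed by the arginine carrier gene SLC7A1 (16.9 ± 0.445). The lysosomal polyamine exporter gene ATP13A2 was at 5.77 and 6.30 and its relative ATP13A3 at 9.87 and 7.43.

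ODC1 is a textbook target of MYC, and 10 of 13 genes of the MYC network had values, 4 above the median gene. MYC was at 61.3 and 64.9 (63.1 ± 2.51), 4.74-fold above its partner MAX (13.2 ± 0.0566). MLX (47.5 ± 0.269) and MXD3 (35.2 ± 0.163) followed, and MXD1 was lowest (4.61 ± 0.700). The median of the list was 10.8, below that of the 8 polyamine genes.

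**Figure D4:**
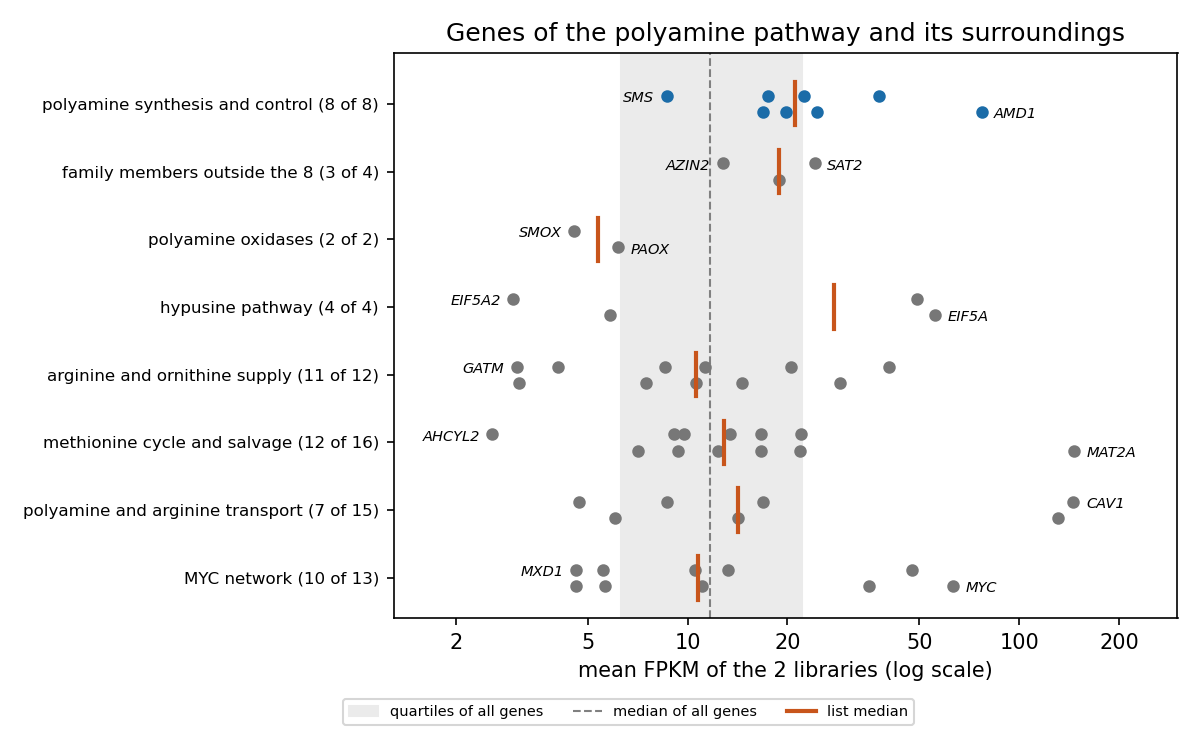
Mean FPKM on a log axis for each gene with a value, by list, with the number of genes with a value out of those listed; bars mark list medians, the grey band the quartiles of all genes and the dashed line their median. AMD1, MAT2A, CAV1, EIF5A and MYC are the highest of their lists, and both oxidases lie left of the median line.

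The libraries had the markers of fibroblasts. All 14 marker genes had values, 12 of them above the median gene, with COL1A1 at 649, VIM at 539 and COL1A2 at 353. The other 2 lay below the median gene, PDGFRA at 9.2 and 8.23 and DCN at 6.99 and 7.69. None of the 5 endothelial and none of the 5 leukocyte markers had a value, and of the 6 epithelial markers CDH1 alone did (1.49 ± 0.0141). Of the melanocyte markers 3 of 5 had values, with sums of 38.9 and 34.8: PMEL was at 22.4 ± 2.23, above the median gene, MITF at 9.91 ± 1.44 and MLANA at 4.53 ± 0.750, while TYR and DCT had no value. Of the neuronal markers 3 of 4 had values, all 3 below the median gene, with sums of 10.9 and 11.3. These values do not show that such cells were present. The source of these marker reads was not tested, nor was any part of other cells in the polyamine gene levels.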

How the data were processed

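GRO-seq libraries were made from nuclei of 2 untreated BJ samples, per the labels' protocols. The authors deposited 1 table of FPKM values with 2 columns. Per the submitters' processing notes, Bowtie2, HTSeq and hg19 were used; for the gene length, read total, strand use and any filter, no statement was found in the sources used here. No value in the table is 0 (minimum 0.290 and 0.270), so a gene without a value is described only as that. Column names end in a and b and could be tied to the group, not to a replicate number. Depth is unknown: among 448 genes under FPKM 2, ratios between columns did not pile up (at most 6 in a narrow bin), so no read unit could be recovered, and no counting interval is given.

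Identifiers were paired with symbols through an Ensembl name table (12202 of 12353). Ratios and differences used log2(FPKM + 0.1). With 1 group, conditions could not be compared. No test of ratios against 0 was run, since an exact sign-flip of 2 values cannot go below p = 0.5. The 8 genes and the 7 lists were chosen with earlier results of these data known. Named genes are the 8, the highest 3 and lowest 1 of each list, nearest genes by level and flanking genes; 2 genes that this rule selects are not reported here. Other list genes, the genes overlapping OAZ3, SAT2 and AZIN2, and the motifs were chosen after values were seen. Alternatives were pseudocounts of 0 and 1, a minimum mean FPKM of 1, quantile normalization, no centring and leaving out each library. The procedures were tested on simulated data. Python 3.11.15, numpy 2.4.6 and pandas 2.3.3 were used.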

Additional observations from a re-analysis of the deposited data

How the results depend on the processing

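Of the 28 results run with quantile normalization, none with an SD moved by more than the spread between libraries. The counts among them stayed at 23 separated pairs and 0 genes past 1.2-fold. The number of the 8 genes above the median gene was 7 under each of the 3 settings run for that count. The OAZ1 to ODC1 log2 ratio, 0.048 over both libraries, turned to -0.078 with library a left out and was 0.17 with library b left out, so these genes have no order here. With a pseudocount of 1, values on the log2 scale relative to the median gene came to 0.80 in place of 0.85 for the median of the 8 genes, 2.62 in place of 2.71 for AMD1, 0.65 in place of 0.69 for the other family members, -1.01 in place of -1.13 for the oxidases and 0.26 in place of 0.28 for transport genes. The log2 ratios of SAT1 to ODC1 and of SRM to SMS came to 1.12 and 1.11. The family list was at 0.69 with a pseudocount of 0 and 0.68 with a minimum mean FPKM of 1. Leaving out each library in turn gave 0.82 to 0.84 for the 8 genes, 0.679 to 0.683 for the family list, 0.11 to 0.15 for methionine genes and 0.26 to 0.28 for transport genes. The cause of these shifts was not tested. No paired analysis was possible because the series has 1 group, so no groups could be paired; ratios between genes were taken within each library. Unknown depth and n = 2 limit every error given.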
